A study of Mus musculus with 10 samples.

Results

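The dystrophin-glycoprotein complex was examined in C2C12 cells, a mouse skeletal muscle line that grows as myoblasts and can form myotubes. The genes were Dmd, Dag1, Sgca, Sgcb, Sgcd, Dtna, Sntb1 and Sspn, taken as all probes, controls left out, whose gene name in the scanner files was 1 of these 8. They had 19 of 55681 probes, and 9 of these passed the filter on dim probes. With 1 probe per gene, 6 of the 8 genes were among the 13138 genes and transcripts tested, and Dmd and Dtna were not. One group had been transfected with a miR-27a-3p mimic (6 files) and the other with a scrambled sequence (4 files), each at 150 nM by lipofection, in growth medium with serum, and collected after 72 h. The submitters estimated a transfection efficiency of 60%, so the RNA of each dish also came from cells that had not taken up the RNA. No untransfected cells were analysed here, and the labels name no passage or clone.

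The complex spans the muscle cell membrane. Dystrophin, the product of Dmd, binds actin inside the cell, the dystroglycans made from Dag1 bind laminin outside it, and the sarcoglycans and sarcospan hold the membrane part together. Syntrophins and dystrobrevins attach to dystrophin in the cytoplasm and carry signalling proteins. Loss of dystrophin or of a muscle sarcoglycan causes muscular dystrophy, and the complex is assembled as myoblasts turn into myotubes.

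The agent is shown as the mature sequence of the microRNA that the mimic supplies, with that of its sister miR-27b-3p, since both have the same seed (bases 2 to 8, in capitals). Both are from RefSeq (GRCm38.p6), miR-27a-3p on the plus strand at chr8:84208727-84208747 and miR-27b-3p on the plus strand at chr13:63300760-63300780.
miR-27a-3p: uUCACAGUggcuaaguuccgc
miR-27b-3p: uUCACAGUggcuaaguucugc

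The labels describe separate transfections for all 10 files, whereas the file headers show 5 array positions of 1 slide, each scanned 2 times. By their headers, mimic replicates 1 and 4 were scans of one position, 2 and 5 of another and 3 and 6 of the last, and scrambled replicates 1 and 3 were paired in this way, like 2 and 4. Both files of a position had 24 to 81 spots marked as non-uniform in common, against 0 or 1 in all other pairs of files. Averaging them gave 3 mimic arrays and 2 scrambled arrays, so p-values cover only how far these 5 arrays differ, in part perhaps for technical reasons. A level is the log2 signal minus the 75th percentile, on that scale, of probes detected in all files. Of the spots that were not controls, 27.04% to 35.29% in a file were well above background. Differences are mimic minus scrambled sequence on the log2 scale, tested with limma at an adjusted p threshold of 0.05. Only a gene past it is said to have risen or fallen. The scrambled arrays lay farther apart (SD of log2 differences 0.56) than any pair of mimic arrays (0.32 to 0.44).

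None of the 6 tested genes of the complex passed the threshold in limma. Of these, 5 were above background in all files, and among them Dag1 had the largest difference, a negative one that missed the threshold by less than the third digit of its adjusted p. Sntb1 was above background in 1 of 6 mimic files and 3 of 4 scrambled files, so it was kept mainly through the scrambled files, and its sign and p rest on mimic signals that were mostly not measured. Among the 5, an unadjusted p under 0.05 was found for 3, with negative differences for Dag1 and Sgca and a positive one for Sspn, against 25.3% of all genes tested. At the adjusted threshold, 5.15% of all genes were called, 2.34% lower and 2.8% higher. The arrays of the groups did not overlap for 3 of the 5, against 45.6% of all genes: 2 were lower in mimic cells and 1 higher, against 25.8% and 19.8% of all genes. The median difference was -0.15 over the 5 genes and -0.28 with Sntb1 included, and that of all genes tested was -0.05. In bulk RNA, fewer cells of a type and less RNA per cell cannot be told apart.

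**Figure D1:**
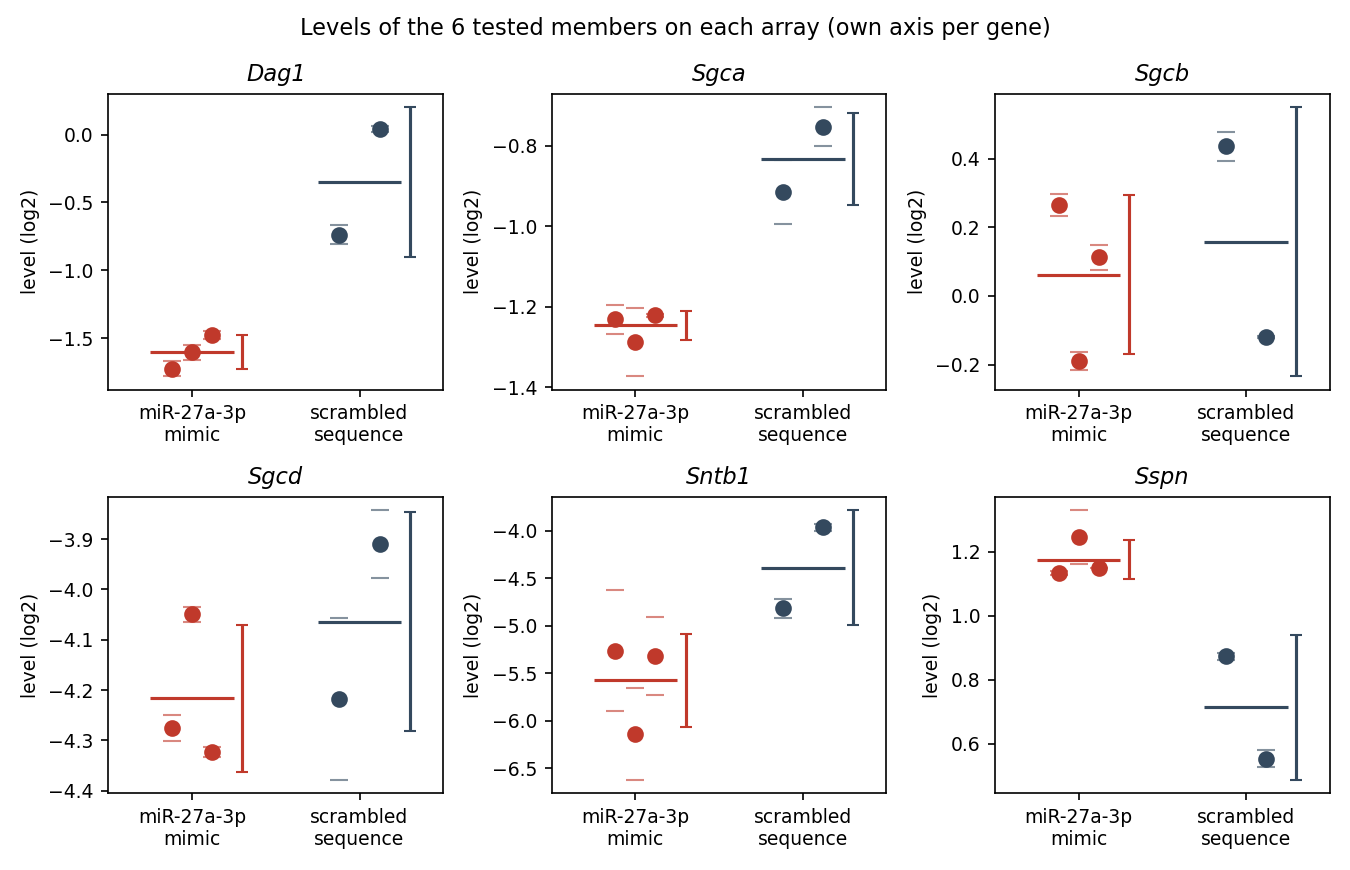
Levels of the 6 tested genes (log2, scaled as in the text), each on its own axis. Dots are arrays, short dashes the files of each array, lines the group means and bars the SD (n = 3 mimic and n = 2 scrambled arrays). For Dag1 the 3 mimic arrays sit between -1.73 and -1.48, below the scrambled arrays at -0.74 and 0.04.

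Dag1 encodes the precursor that is cleaved into alpha- and beta-dystroglycan, the link between laminin and dystrophin. Its only probe lies on chromosome 9 (mm9, 108108491 to 108108550, minus strand) and was well above background in all 10 files. The levels were -1.73, -1.61 and -1.48 on the mimic arrays, against -0.74 and 0.04 on the scrambled arrays. All mimic arrays were lower than both scrambled arrays, which themselves differed by more than the mimic arrays did. The mean level was -1.60 ± 0.12 (SD, n = 3) in mimic cells and -0.35 ± 0.55 (SD, n = 2) in scrambled cells. The difference was -1.26 ± 0.25 (SE, 95% interval -1.87 to -0.64), a fitted level 2.39-fold lower, with an adjusted p = 0.05004. Of 17 alternative settings, 7 put Dag1 past the threshold, with differences of -1.65 to -0.86 over all 17. The 7 include the 10 files as separate arrays and the replicate block, which count both scans of an array as replicates. They also include the fit without scrambled array 1. Dag1 did not pass without mimic array 1, 2 or 3 (adjusted p = 0.195, 0.164 and 0.128). Without scrambled array 1 the difference was -1.65, and without scrambled array 2 it was -0.86. Each of these fits left 1 scrambled array, so no p-value is given for them. In scan 1 alone it was -1.23 (adjusted p = 0.048) and in scan 2 alone -1.28 (adjusted p = 0.064).

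Of the 3 sarcoglycan genes, Sgca had a small negative difference and Sgcb and Sgcd differed by less than the spread between arrays. Sgca encodes alpha-sarcoglycan, which is made almost only in striated muscle. Its levels were -1.23, -1.29 and -1.22 on the mimic arrays, against -0.91 and -0.75 on the scrambled arrays. All 3 mimic arrays were lower than both scrambled arrays. The difference was -0.41 ± 0.14 (SE, 95% interval -0.75 to -0.08) and did not pass (adjusted p = 0.138). This probe (chromosome 11, 94824124 to 94824183) was the brighter of 2, both above background in all files. The other one (94824546 to 94824605) had levels of -1.96, -2.07 and -2.37 in mimic cells, against -1.57 and -0.98 in scrambled cells. Its difference was -0.86 ± 0.23 (SE, adjusted p = 0.101 with every probe tested), with the same sign and a larger size. Without scrambled array 1, the difference of the brighter probe was -0.49, and without scrambled array 2 it was -0.33. It did not pass without any 1 of the mimic arrays (adjusted p = 0.298 to 0.405). With the 10 files as separate arrays, which counts both scans of an array as replicates, it passed (adjusted p = 0.0030).

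Sgcb encodes beta-sarcoglycan, a core subunit also made outside striated muscle. Its levels were 0.26, -0.19 and 0.11 on the mimic arrays, against 0.44 and -0.12 on the scrambled arrays, so the groups overlapped. The difference was -0.10 ± 0.23 (SE, 95% interval -0.66 to 0.47, adjusted p = 0.808). All 3 of its probes (chromosome 5, between 74024927 and 74026638) were above background in all files, and the other 2 had differences of the opposite sign, 0.20 and 0.18. None of the 3 passed with every probe tested (adjusted p = 0.526 to 0.811). The interval of the brightest probe includes differences of either sign.

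Sgcd encodes delta-sarcoglycan, which pairs with beta-sarcoglycan early in assembly. Of its 3 probes, 1 (chromosome 11, 46939058 to 46939117) was above background in all 10 files and the other 2 in none. Its levels were -4.28, -4.05 and -4.32 in mimic cells, against -4.22 and -3.91 in scrambled cells, and the groups overlapped. The difference was -0.15 ± 0.17 (SE, 95% interval -0.57 to 0.27, adjusted p = 0.594). Its sign turned under other scalings: the difference was 0.011 with quantile normalization, 0.0061 with the percentile over all probes and 0.019 in the deposited value table.

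Sspn encodes sarcospan, a small protein with several membrane spans that binds the sarcoglycans, and it was the only 1 of the 6 with a positive difference. The levels were 1.13, 1.25 and 1.15 on the mimic arrays, against 0.87 and 0.55 on the scrambled arrays. All mimic arrays were higher than both scrambled arrays. The difference was 0.46 ± 0.16 (SE, 95% interval 0.08 to 0.85) and did not pass (adjusted p = 0.144). Its only probe (chromosome 6, 145913663 to 145913722) was above background in all files, and mimic array 3 rests on 1 file because the spot was marked as an outlier in the other. Without scrambled array 1 the difference was 0.62, and without scrambled array 2 it was 0.30.

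Sntb1 encodes beta-1-syntrophin, an adaptor that binds dystrophin and dystrobrevin. Its brighter probe (chromosome 15, 55623590 to 55623649) was well above background in 1 of 6 mimic files and 3 of 4 scrambled files. The levels were -5.26, -6.14 and -5.32 on the mimic arrays, against -4.82 and -3.96 on the scrambled arrays. The mimic arrays were lower and largely rest on signals not above background, so the size of the difference is uncertain. The fit gave -1.18 ± 0.37 (SE, 95% interval -2.08 to -0.28, adjusted p = 0.125). The value was -0.53 with normexp background correction, -1.61 without scrambled array 1 and -0.75 without scrambled array 2. With the 10 files as separate arrays, which counts both scans of an array as replicates, Sntb1 passed (adjusted p = 0.029). The other probe (55470721 to 55470780) was above background in 0 of the 6 mimic files and in 2 of the 4 scrambled files, did not pass the filter and was not tested. Its levels were -5.96, -4.89 and -5.63 on the mimic arrays, against -5.35 and -3.98 on the scrambled arrays, and the groups overlapped.

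**Figure D2:**
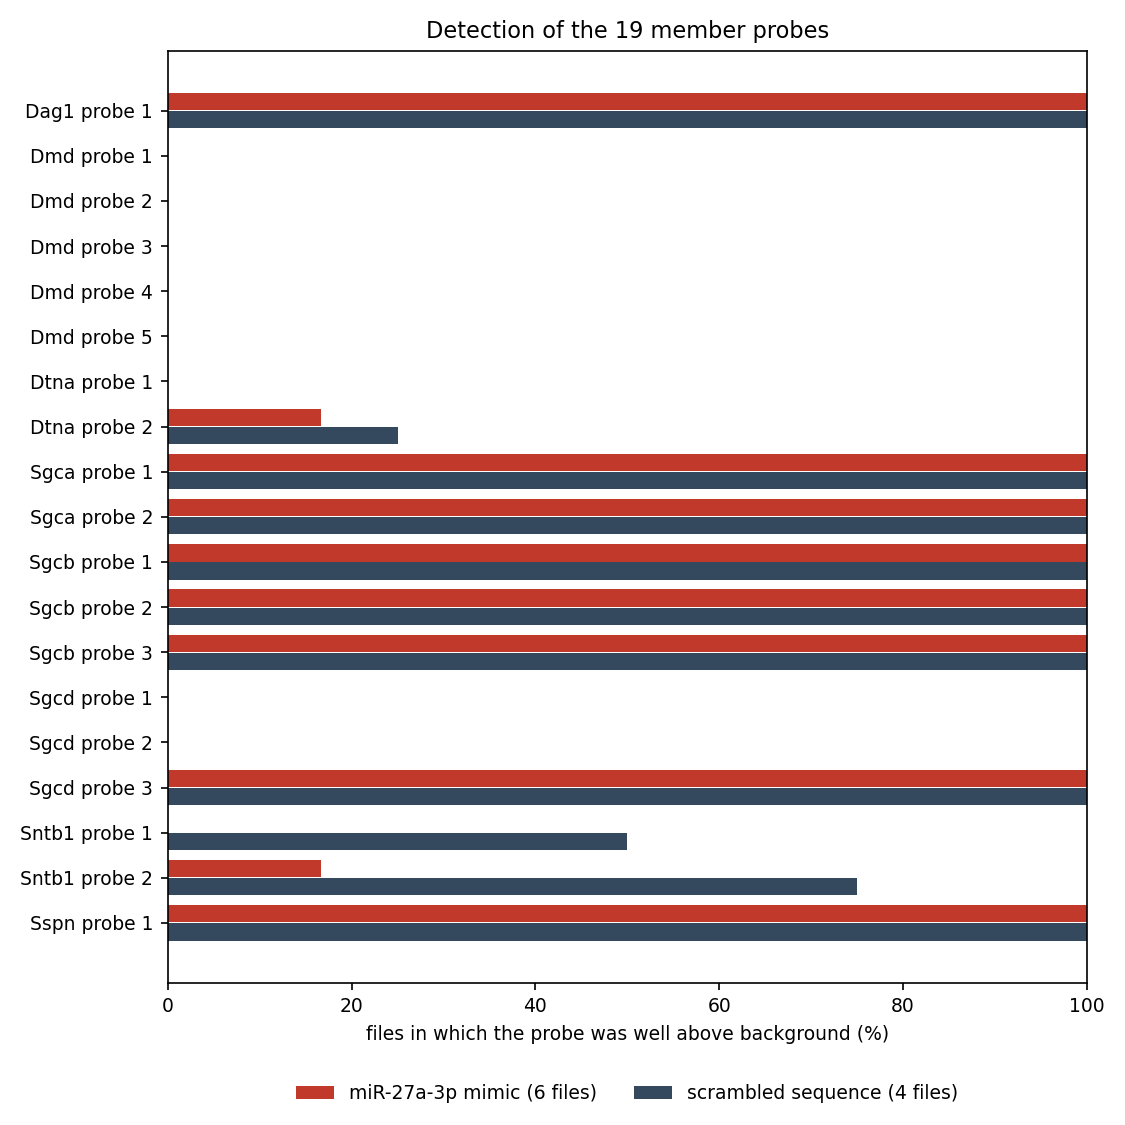
Share of files in which each of the 19 probes was well above background, in mimic files (6) and scrambled files (4), with the probes of a gene numbered by position. All 5 Dmd probes stand at 0 in both groups, whereas those of Dag1, Sgca, Sgcb and Sspn reach the top of the scale.

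Dmd was not measured above background in any file. Dystrophin is transcribed from several promoters, and the short forms share only the end of the protein with the full-length muscle form, so the place of a probe decides which forms it can meet. Shown here are the 3 of the 5 probes that the files assign to the RefSeq transcript, in order along the plus strand (mm9 chrX:80596782-80596841, chrX:81132417-81132476 and chrX:82389391-82389450).
Dmd probe 1: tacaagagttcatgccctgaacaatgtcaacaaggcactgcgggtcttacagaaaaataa
Dmd probe 2: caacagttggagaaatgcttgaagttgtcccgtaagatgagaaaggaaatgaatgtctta
Dmd probe 4: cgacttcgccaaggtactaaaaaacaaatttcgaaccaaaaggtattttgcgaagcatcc

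Probe 1, the nearest to the start of the gene, had signals of 22.7, 24.9 and 28.4 intensity units on the mimic arrays, against 27.7 and 22.8 on the scrambled arrays. Over all 5 probes and 5 arrays the signals ran from 12.9 to 36.2 units, and every probe was well above background in 0 of 10 files. No fold is given, since neither group was well above background. The arrays thus give no level of dystrophin mRNA in either group.

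Dtna encodes alpha-dystrobrevin, a cytoplasmic relative of dystrophin that binds syntrophins. Of its 2 probes on chromosome 18, 1 was above background in no file, and the other in 1 file of each group. The second had levels of -5.38, -5.20 and -5.19 in mimic cells, against -5.00 and -4.67 in scrambled cells. The mimic arrays were lower by 0.43 on average, a value that rests mostly on signals not above background and was not tested.

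**Figure D3:**
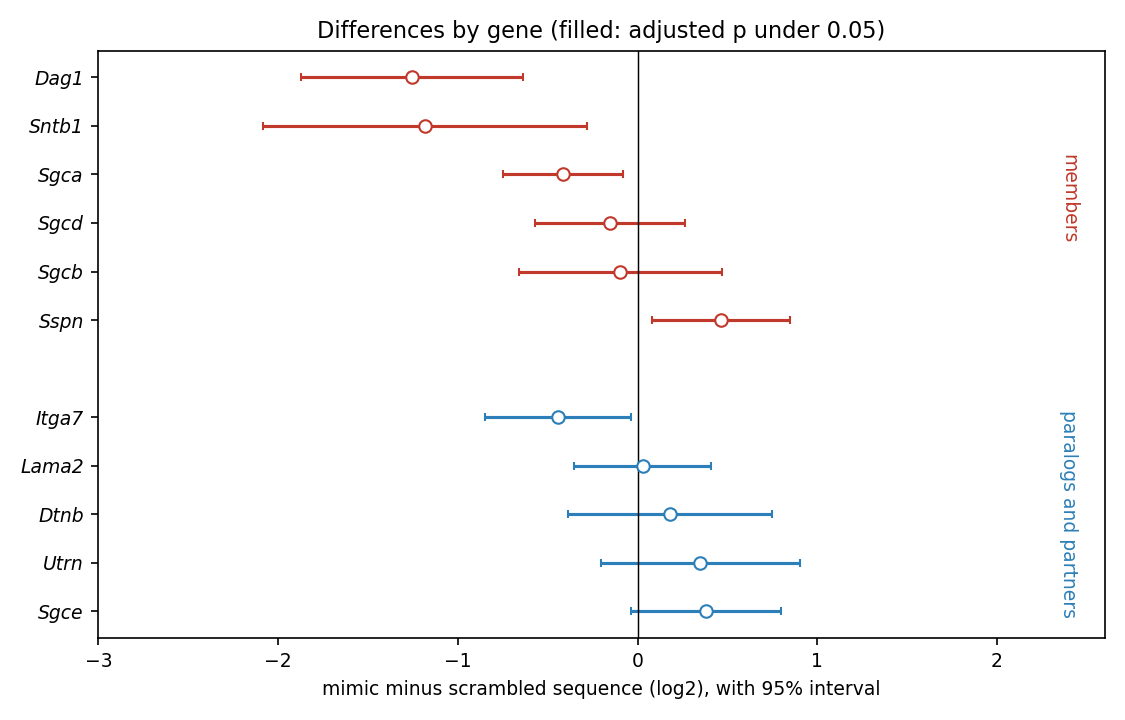
Difference between mimic and scrambled sequence (log2, with 95% interval) for the 6 tested genes of the complex and 5 paralogs and partners. No dot is filled, since none of these passed the adjusted p threshold of 0.05, and Dag1 lies lowest at -1.26.

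Among other subunits, paralogs and partners of the complex, 1 of 20 tested passed. Of 27 genes listed, 20 were tested, 1 fell, 0 rose in limma and 19 did not pass, with 4 at an unadjusted p under 0.05. Over all genes tested, 5.15% were called and 25.3% had an unadjusted p under 0.05. The median was -0.03, and 11 of the 20 were negative, against 54.8% of all genes tested. With any 1 mimic array left out the count of calls was 0.

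The broadly expressed paralogs did not pass. Sgce, epsilon-sarcoglycan, the relative of alpha-sarcoglycan found outside muscle too, was at 0.38 ± 0.17 (SE, adjusted p = 0.228). Its levels were -0.69, -0.90 and -0.96 in mimic cells, against -1.07 and -1.39 in scrambled cells, without overlap. Utrn, utrophin, the paralog of dystrophin that can stand in for it, was at 0.35 ± 0.23 (SE, adjusted p = 0.365). Utrn overlapped between the groups, with -2.74, -2.28 and -2.61 in mimic cells, against -3.15 and -2.64 in scrambled cells. Dtnb, beta-dystrobrevin, was at 0.18 ± 0.23 (adjusted p = 0.640).

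Partners at the matrix also did not pass. Lama2, the laminin chain bound by dystroglycan in muscle, was at 0.03 ± 0.16 (SE, 95% interval -0.36 to 0.41, adjusted p = 0.924). Itga7, the muscle laminin receptor that acts beside the complex, was at -0.44 ± 0.17 (adjusted p = 0.173). Its levels were 3.27, 3.48 and 3.35 in mimic cells, against 3.64 and 3.98 in scrambled cells, without overlap.

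The enzymes that build the laminin-binding glycan of alpha-dystroglycan held 1 called gene. Of 17 listed, 16 were tested, 1 fell, 0 rose in limma and 15 did not pass, with 5 at an unadjusted p under 0.05. The shares over all genes tested were 5.15% called and 25.3% at an unadjusted p under 0.05. The count of calls was 0 when mimic array 1, 2 or 3 was left out. The list as a whole had a median of 0.13, with 7 of 16 negative.

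Markers of differentiated myotubes moved in the same arrays. Of 16 listed and tested, 12 fell, 0 rose in limma and 4 did not pass, against 2.34% of all genes called lower and 2.8% higher. An unadjusted p under 0.05 was found for 13, against 25.3% of all genes tested, and the median difference was -1.55. Earlier results of these data had already shown lower muscle genes after the mimic, so this is not independent evidence. The difference was negative for 15 of the 16, against 54.8% of all genes tested. The other difference was positive, at 0.31, and did not pass. Mymk, the membrane protein that drives myoblast fusion, fell by 2.44 ± 0.29 (SE, log2, adjusted p = 0.013). Tnnc1, the slow and cardiac troponin C, fell by 2.17 ± 0.23, and Myog, which starts terminal differentiation, by 2.10 ± 0.21 (adjusted p = 0.0095 and 0.0092). Mylpf, a fast myosin light chain above background in 4 of 6 mimic files, fell by 1.88 ± 0.23 (adjusted p = 0.013). Tnni1, slow troponin I, fell by 1.85 ± 0.28 (adjusted p = 0.024), and Mymx, a fusion peptide, by 1.56 ± 0.16 (adjusted p = 0.0095). Without mimic array 1, 2 or 3, the count of calls in this list was 0, 1 and 6. The summed linear level of the list was 17.7 to 20.6 on the mimic arrays, against 50.6 and 54.9 on the scrambled arrays. The part of the myotube markers in the values of Dag1 and Sgca was not tested.

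Markers of other cells were checked beside these results. Of the 6 myoblast markers, 4 were tested, Myf5 was above background in 1 of 10 files and Pax7 in none. The sum of the myoblast markers was 5.61 to 6.57 on the mimic arrays, against 7.46 and 11.6 on the scrambled arrays. Of the 4 fibroblast markers, 2 were above background in no file, Thy1 and Tcf21. The fibroblast sum was 3.29 to 3.41 on the mimic arrays, against 2.83 and 1.89 on the scrambled arrays. This sum was mostly Col1a1, with a mean level of 1.73 in mimic cells, against -5.81 for Pdgfra. Pdgfra and Col1a1 were tested. Pdgfra passed at -0.96 ± 0.16 (SE, log2, adjusted p = 0.030). It was above background in 1 of 6 mimic files and 3 of 4 scrambled files, so its value rests on mimic signals that were mostly not measured. Col1a1 was at 0.55 ± 0.20 (adjusted p = 0.166). None of the 4 tested myoblast markers passed in limma, with 3 at an unadjusted p under 0.05, against 25.3% of all genes tested. Negative differences were found for 3 of the 4, against 54.8% of all genes tested. All 3 adipocyte markers were above background in no file, with sums of 0.0258 to 0.0363 on the mimic arrays, against 0.0273 and 0.0286 on the scrambled arrays. Of 3 markers each, only Kdr for endothelial cells and Cd68 for macrophages were above background, both in all 10 files. Neither passed, with Kdr at 0.19 ± 0.17 (SE, adjusted p = 0.505) and Cd68 at 0.53 ± 0.14 (adjusted p = 0.095). The endothelial sum was 0.190 to 0.239 on the mimic arrays, against 0.201 and 0.179 on the scrambled arrays. The macrophage sum was 0.116 to 0.131 on the mimic arrays, against 0.0832 and 0.108 on the scrambled arrays. The part of these markers in the results was not tested.

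**Figure D4:**
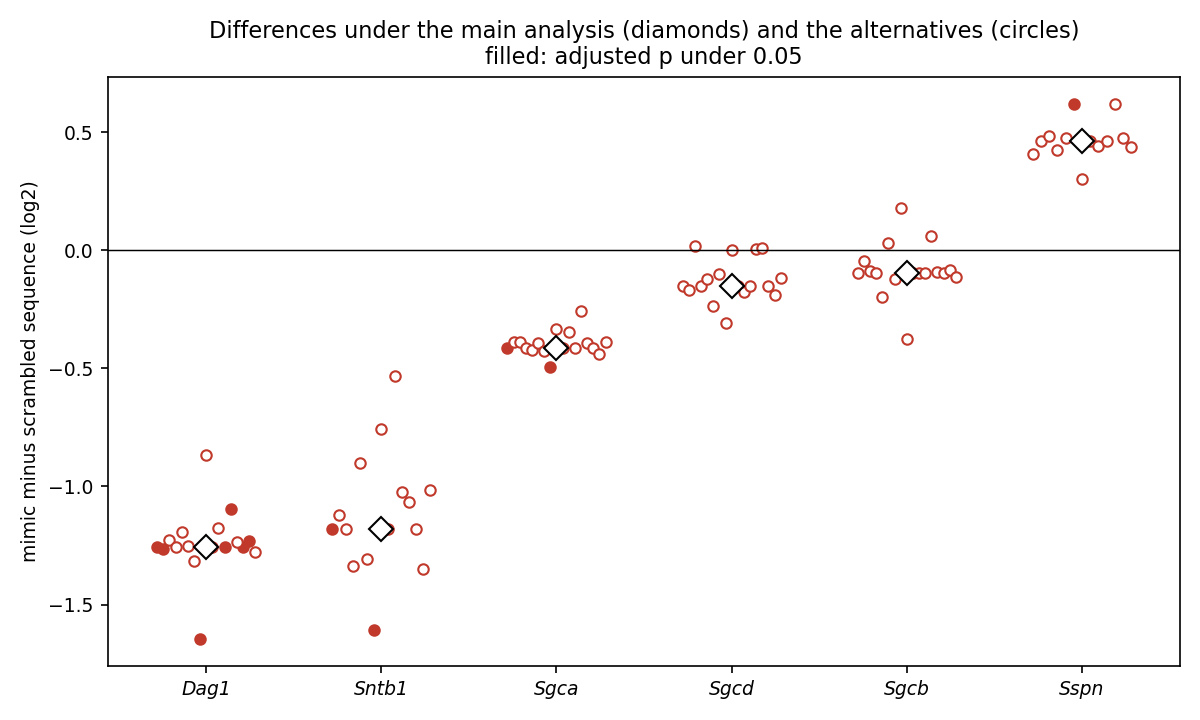
Difference between mimic and scrambled sequence (log2) for the 6 tested genes of the complex under the main analysis (diamonds) and each alternative that gave a value (circles), filled where the adjusted p was under 0.05. Dag1 stays between -1.65 and -0.86 and passes in 7 of 17 alternatives, while Sgcb and Sgcd lie on both sides of 0.

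Promoter sequence was available in RefSeq (GRCm38.p6) for 6 of the 8 genes, in 9 windows from 250 bases before to 50 after a transcript start. The windows were searched on both strands for the E-box CANNTG, the motif of myogenic factors such as myogenin, and for CAGCTG and CAGGTG, both of which are also CANNTG. Over 32851 promoters of the same length, CANNTG was held by 72.3%, its form CAGCTG by 16.3% and its form CAGGTG by 20.2%. CANNTG was found in 6 of the 9 windows, and the other forms named here in none. Both Dag1 windows are among the 6, and they overlap and hold the same E-box. The windows of Dag1 and Sgca are shown with CANNTG in capitals, since these were the members above background in all files whose mimic arrays all lay below the scrambled arrays. Both are on the minus strand, Dag1 at chr9:108263909-108264208 with 1 match and Sgca at chr11:94976278-94976577 with 2.
Dag1: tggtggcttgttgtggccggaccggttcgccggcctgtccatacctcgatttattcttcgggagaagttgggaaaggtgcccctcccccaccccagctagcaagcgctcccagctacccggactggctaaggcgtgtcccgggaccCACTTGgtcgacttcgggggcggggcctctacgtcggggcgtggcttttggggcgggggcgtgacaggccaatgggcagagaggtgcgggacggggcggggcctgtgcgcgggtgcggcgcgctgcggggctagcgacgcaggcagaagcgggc
Sgca: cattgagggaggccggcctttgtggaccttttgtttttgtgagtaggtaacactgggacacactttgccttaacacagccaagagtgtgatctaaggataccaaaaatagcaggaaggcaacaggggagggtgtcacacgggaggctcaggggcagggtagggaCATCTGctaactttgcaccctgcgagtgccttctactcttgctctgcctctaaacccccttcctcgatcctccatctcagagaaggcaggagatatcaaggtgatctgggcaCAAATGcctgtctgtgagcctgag

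The E-box of this Dag1 window starts at position -104 relative to the transcript start. Dmd had 2 windows, and the first (chromosome X, 82948620 to 82948919) held 3 E-boxes, a MEF2 box and a CArG box, the motifs of the muscle factors MEF2 and SRF. Over all promoters, 3.19% held a MEF2 box and 1.63% a CArG box. The Sgcb window held none of these motifs. A match is a description of letters and says nothing of binding in these cells.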

How the data were processed

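Total RNA, amplified with a low-input kit per the labels' protocols, was hybridised to 1-colour (Cy3) Agilent arrays; the 10 samples' files are 5 array positions scanned 2 times, per the file headers. The deposited scanner files hold spot intensity, background-subtracted and detrended by Feature Extraction, version 12.0.0.7 per the file headers and 10.7.3.1 per the submitters' processing notes. A deposited value table (linear, not centred, 1 intensity per probe, column medians 192.1 to 294.2, normalization method unknown) served as an alternative. Probe positions are on mm9, per the file headers.

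Outlier spots (157 to 270 per file) and controls were left out, log2 signals of a probe averaged and the 75th percentile over 13029 probes detected in all files subtracted. A probe was kept if 4 or more of the 10 files had it well above background (16786 were), each gene by its brightest probe; 50 genes lacked an array value. Names follow the RefSeq table of GRCm38.p6. A probe named A530047J11Rik in the files and Sgcd in that table was not used for Sgcd. Groups were fitted with limma 3.58.1 in R 4.3.3 (lmFit, eBayes, Benjamini-Hochberg over all genes), tested on simulated data. The number of arrays limits the precision.

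The members and lists were chosen with earlier results of these data known. Named were all members, list genes past the threshold (at most 6 per list) and 7 fixed paralogs and partners; genes like a called member in pattern were to be named, and none was called. Some genes that this rule names, and some marker values, are not reported here.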

Additional observations from a re-analysis of the deposited data

How the results depend on the processing

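The count of members called was 0 in the main analysis. It was 1 (Dag1) with the array position as a random block and within scan 1. The same held with the percentile over all probes and with the filter tightened to detection in every file. It was 3 of the 5 tested with the 10 files as separate arrays, where 34.5% of all genes were called, and 0 when 1 mimic array was left out. Fits without a scrambled array had only 1 array in that group, so no count of calls is given for them here. The count of members called was 0 within scan 2, with normexp, quantile normalization, the deposited table, no filter and every probe tested. The median of the members lay between -0.41 and -0.09 in all 17 alternatives. It was taken over the 5, 6 or 8 members that a setting tested, so the range also reflects which members were in. Sspn lacked 1 file and could not be fitted in the 10-file models or in scan 2 alone. The replicate numbers of the labels did not pair the samples (correlations of same-numbered files 0.35, -0.08, -0.45 and -0.09, and 2 of 8 files closest to their own number). With the replicate block on 10 files, 1950 genes were called in all, 1 member (Dag1, -1.26, adjusted p = 0.021), 2 of the wider list and 4 of the glycan list. Over all genes 676 were called, against 4512 with 10 files as separate arrays, 1459 with the random block, 17 with no filter on dim probes (34474 genes tested) and 47 to 4352 with 1 array left out. Of all calls 45.6% were lower, and 31.8% with the percentile over all probes, which moved the median of all genes to 0.11. The wider list had 1 call, against 10 with separate arrays, 0 with no filter and 0 to 11 with 1 array left out. The glycan list had 1, against 5 with separate arrays, 2 with the random block and within scan 2, and 0 with no filter or with 1 mimic array left out. The myotube list had 12, against 0 with no filter and 0 to 6 with 1 mimic array left out. Sgcb turned positive with the percentile over all probes (0.063), without mimic array 2 (0.03) and without scrambled array 1 (0.18), and with 1 array left out it ran from -0.37 to 0.18. Sgcd turned positive with quantile normalization (0.011), the percentile over all probes (0.0061), the deposited table (0.019) and without scrambled array 2 (0.0012), and with 1 array left out it ran from -0.31 to 0.0012. The cause of these changes was not tested. With no filter, more genes were adjusted for and the SEs were also larger at the same differences. The SE was 0.30 for Dag1 and 0.22 for Sgca, against 0.25 and 0.14 in the main analysis. The deposited table's rule for empty values stays unknown.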
